A study of Mus musculus with 7 samples.

Results

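The 41 collagen chain genes were all rows of the deposited table annotated as protein coding with a symbol of the form Col, a type number, the letter a and a chain number. They make up 41 of the 25322 genes in the table. Each was followed over 7 bulk RNA-seq libraries, 4 of Zfp750 knockouts (Zfp750_KO) and 3 of controls, made on day 36 from skin cells that had been sorted for the red reporter tdTomato. Zfp750, the mouse counterpart of human ZNF750, encodes a transcription factor of epidermal terminal differentiation. The knockouts are given as ZNF750 fl/fl and Lrig1-CreER or Lrig1-CreERT2 +/-, with 3 given as Rosa26 +/- and 1 as Rosa26 -/-. Of the controls, 2 are given as ZNF750 wt/fl with Lrig1-CreERT2 +/- and 1 as ZNF750 wt/wt with Lrig1-CreER +/-, all 3 as Rosa26 +/-. The controls thus carried the Cre driver as well, and pups of both groups received 4-hydroxytamoxifen, the ligand that activates this Cre, on days 4 to 7 or days 5 to 8 after birth. Lrig1 marks stem cells of the hair follicle, and the deletion is limited to cells in which its promoter was active under treatment and to their descendants. Whether every library is a separate animal is not stated, and p-values therefore refer to the spread among the libraries alone.

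Collagens are the main structural proteins of skin. Chains assemble into a triple helix, and the family divides by what the helices build. Fibrillar collagens (types I, III, V and relatives) form the banded fibrils of the dermis, and fibril-associated collagens (types XII, XIV and relatives) decorate their surface. Type IV forms the sheet of basement membranes, type VI forms beaded filaments around cells, and type VII forms the anchoring fibrils that tie the epidermal basement membrane to the dermis. Dermal fibroblasts make most of these chains, whereas keratinocytes make type XVII and much of type VII.

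The libraries differed in cellular makeup within each group, and these values stand beside every result that follows. Read totals were 9.09 to 17.1 M per library. The libraries carry the names 1M, 2M, 3F and 6F (Zfp750_KO) and 4F, 4M and 7F (control), and the letter was read as the sex of the mouse. Zfp750 itself had 48.9, 45.4, 10.1 and 29.6 in these Zfp750_KO libraries, against 335, 51.2 and 61.9 in the controls. All 4 lay below all 3, with 1M only narrowly below control 4M. Control 4M held both the X-inactivation transcript Xist, at 3318, and the Y-linked Ddx3y, at 810, so it goes partly against its letter; the other 6 did not. A fibroblast score, the mean log2 level of 15 fibroblast genes with no collagen among them, was 13.3, 13.2, 11.4 and 11.4 in the Zfp750_KO libraries, in the order given, and 13.1, 12.5 and 12.4 in the controls. A macrophage score over 20 genes was 7.84, 7.47, 11.9 and 11.7 in the same Zfp750_KO libraries and 6.19, 10.9 and 11.2 in the same controls. Summed keratinocyte markers ran from 396 to 3511 per M of the library total in Zfp750_KO and from 425 to 4002 per M in controls. Summed fibroblast markers were higher than these in each group, from 5893 to 21677 per M in Zfp750_KO and from 12854 to 21011 per M in controls, although Lrig1 is known as an epithelial driver. In Zfp750_KO the letter, the fibroblast score and the macrophage score separate the libraries alike and cannot be told apart. In bulk samples fewer cells of a type and less RNA per cell cannot be told apart either.

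All values below are the authors' normalized counts, comparable between libraries for 1 gene but not between genes unless given per kilobase of transcript. Unless stated otherwise, values are listed for 1M, 2M, 3F and 6F of Zfp750_KO and then for 4F, 4M and 7F of the controls. Collagen chains made up 13.4%, 13.9%, 2.07% and 5.63% of the total of the Zfp750_KO libraries, against 17.9%, 16.0% and 9.43% of the control libraries. The groups overlapped, with 3F lowest and control 4F highest. The mean share was 8.76% ± 5.86 in Zfp750_KO and 14.5% ± 4.46 in controls (SD, n = 4 and 3), a difference of -5.70 percentage points with a two-sided exact permutation p of 0.229; the smallest p that 4 against 3 libraries allow is 0.0571. The 3 most abundant chains, Col1a1, Col3a1 and Col1a2, set this direction. Over the rest of the library without those 3, the other chains together made up 4.67%, 4.00%, 0.584% and 0.821% in Zfp750_KO, against 1.56%, 1.82% and 1.26% in controls, a difference of +0.973 percentage points in the opposite direction (exact permutation p = 0.571).

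Fibrillar, type VI, fibril-associated and type VII shares of the collagen pool did not overlap between the groups. For all but type VII the margin was narrow, with 6F next to control 7F. Fibrillar chains took 73.9%, 79.6%, 78.6% and 90.1% of all collagen values in Zfp750_KO, against 95.1%, 93.3% and 91.5% in controls. The groups did not overlap. Type VI chains took 13.0%, 12.1%, 11.3% and 5.12% in Zfp750_KO, against 2.60%, 4.08% and 4.92% in controls, again without overlap. Fibril-associated chains took 10.4%, 6.28%, 4.15% and 1.55% in Zfp750_KO, against 0.594%, 0.987% and 1.37% in controls. Type VII took 0.786%, 0.586%, 0.0757% and 0.0923% in Zfp750_KO, against 0.0179%, 0.00927% and 0.00830% in controls. For type IV the groups overlapped, at 0.899%, 0.714%, 4.20% and 2.08% in Zfp750_KO and 0.700%, 0.960% and 1.40% in controls. Shares of 1 sum move against each other, so a lower fibrillar share and higher shares of other classes are the same observation. Relative to the collagen total, 9.86% of all genes lay higher in Zfp750_KO without overlap and 0.0992% lower. These shares are given as a description, with no test.

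**Figure D1:**
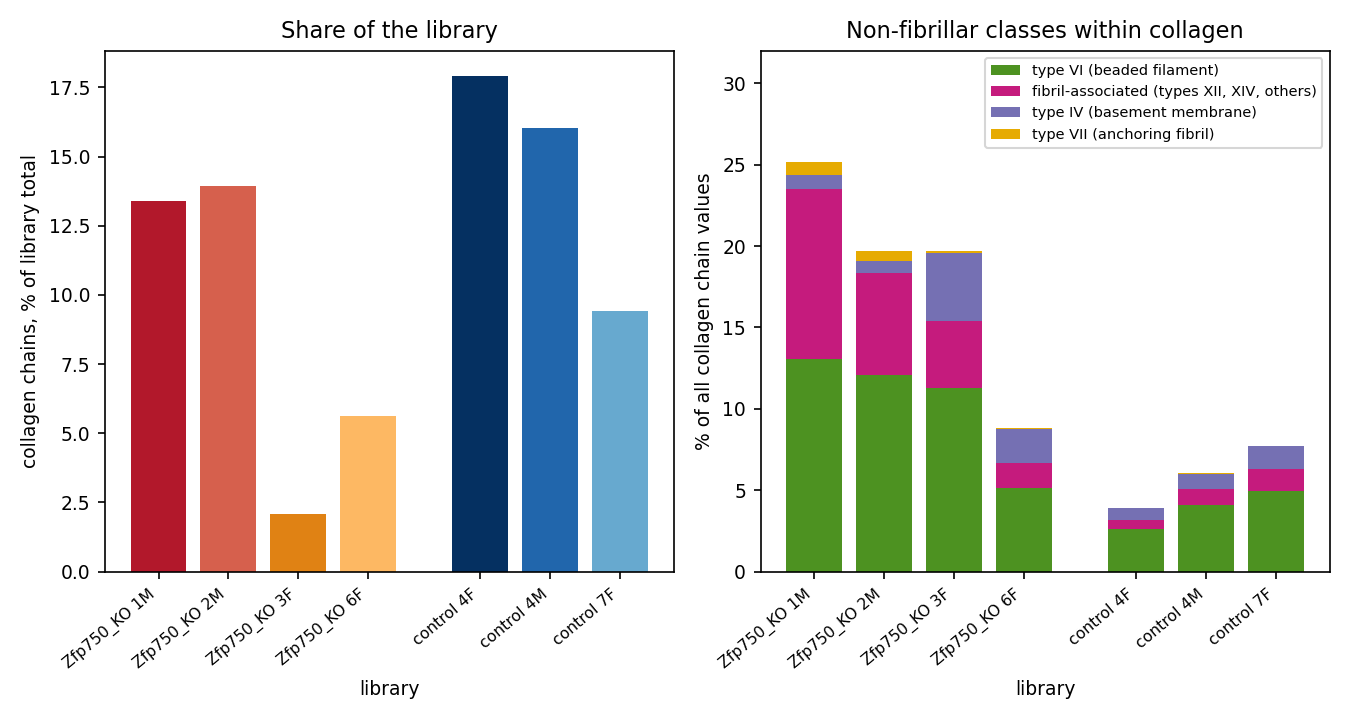
Left, the share of each library's total taken by the 41 collagen chains (y axis, %). Right, the share of all collagen values in type VI, fibril-associated, type IV and type VII chains (y axis, %, stacked); each bar is 1 library, Zfp750_KO at the left of each panel and control at the right. The library share ran from 2.07% to 13.9% in Zfp750_KO and from 9.43% to 17.9% in controls, and the type VI layer ran from 5.12% to 13.0% in Zfp750_KO and from 2.60% to 4.92% in controls.

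Of the 41 chains, 39 passed the filter on low values and were tested. Col2a1, the cartilage fibril chain, and Col19a1, a fibril-associated chain, did not pass, with highest values of 10.1 each, in control 7F and control 4F. In limma with the group as the only term, 0 of 39 passed an adjusted p of 0.05, and so did 0 of the 18141 genes tested (0%). At an unadjusted p under 0.05 the same limma fit had 8 of 39 chains, against 5.83% of all genes. The median log2 difference (Zfp750_KO minus control) of the chains was -0.36 in that fit, against 0.02 over all genes. With the macrophage score as a covariate, limma called 4 chains higher in Zfp750_KO, where 1.23% of all genes were, and 6 lower, where 2.02% of all genes were. With the fibroblast score in place of the macrophage score, limma called 8 chains higher, against 2.18% of all genes, and 2 lower, against 1.36% of all genes. Among the 8, Col24a1 and Col6a4 reached 1 per M in 4 of 4 Zfp750_KO libraries and 1 of 3 controls, and Col25a1 in 2 of 4 and 1 of 3. They passed the filter on low values only with the Zfp750_KO libraries, so their direction is in part set by it. Col24a1 is also 1 of the 4 called higher with the macrophage score. The median log2 difference of the chains was -0.26 with the macrophage score and -0.02 with the fibroblast score, against 0.02 and 0.01 over all genes. Called in both of these limma fits were 5 chains: Col7a1, Col24a1 and Col11a1 (higher) and Col14a1 and Col4a4 (lower). Of these, Col24a1 carries the limit of the filter given above. The fits use the same libraries and group term, so their calls are not independent. The share of all genes called in both was not counted, so the number of such chains has nothing to be read against. The other 5 chains called with the macrophage score missed the threshold with the fibroblast score (limma, adjusted p = 0.0524 to 0.102). Both fits assume 1 slope per gene in both groups. The macrophage scores of 3F and 6F lie above the control range, and the fibroblast scores of all 4 Zfp750_KO libraries lie outside the control range, 1M and 2M above it and 3F and 6F below it, so every difference with the fibroblast score rests on that line.

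**Figure D2:**
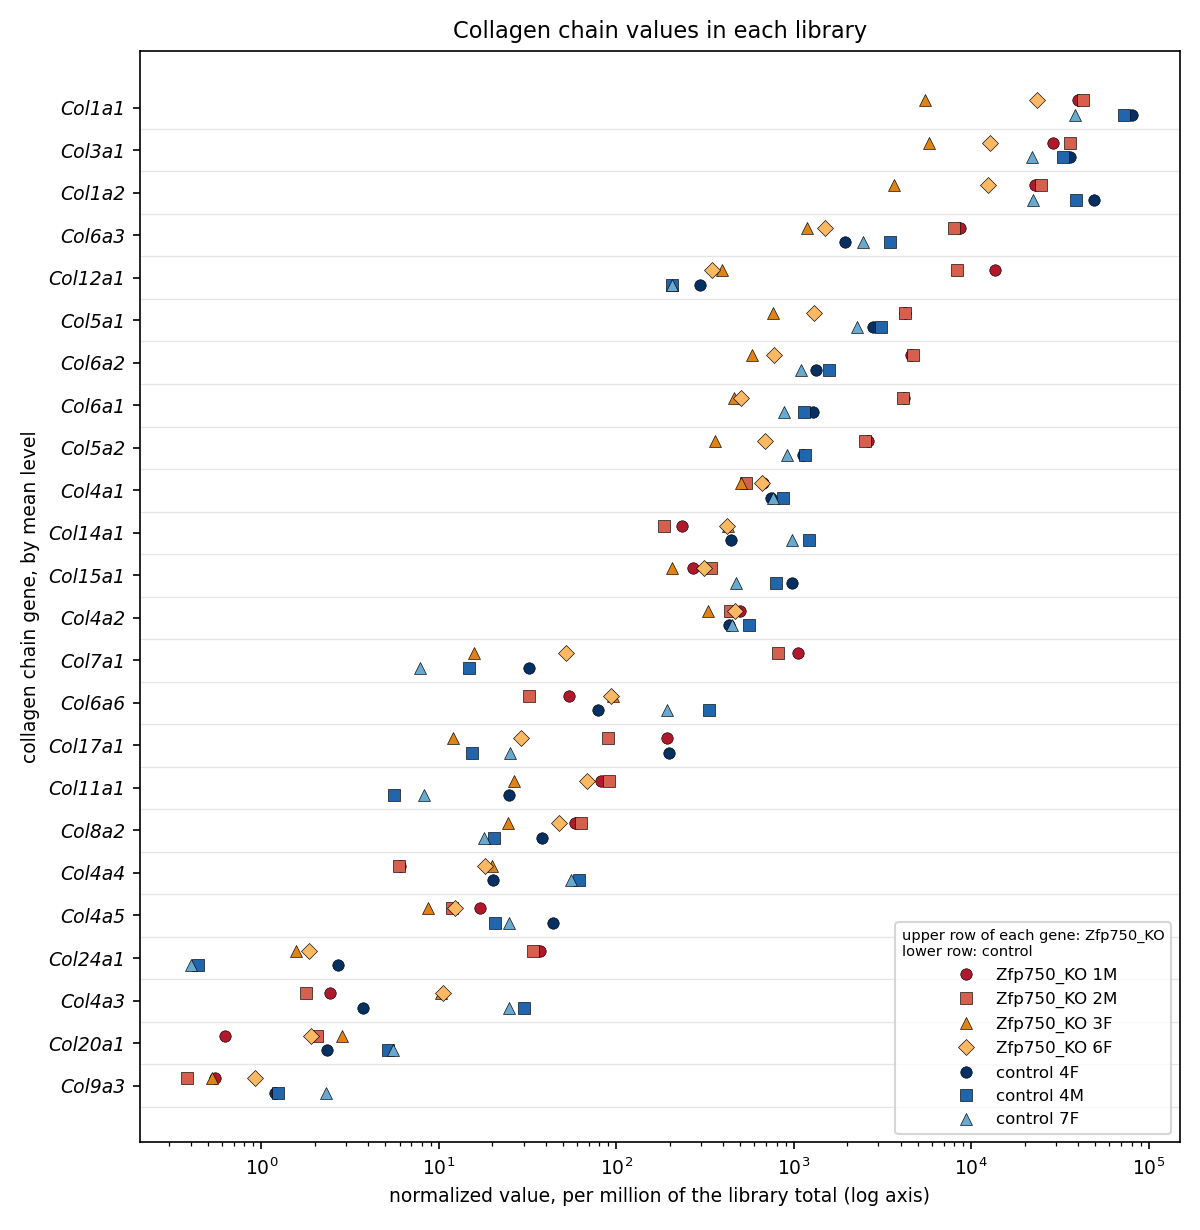
Normalized values per M of the library total (x axis, log scale) of the 24 chains named by rule (y axis, highest mean at the top); upper symbols are the 4 Zfp750_KO libraries and lower symbols the 3 controls. Col12a1 and Col7a1 show 1M and 2M far to the right of all others, whereas Col14a1 and Col15a1 show all 4 Zfp750_KO libraries to the left of the controls.

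Type I collagen, a helix of Col1a1 and Col1a2 chains, and type III collagen, built from Col3a1, are the bulk of the dermal fibril. Col1a1 (chromosome 11, ENSMUSG00000001506) had values of 536011, 561715, 59036 and 243782 in Zfp750_KO, against 1070000, 869507 and 430041 in controls. Zfp750_KO 3F and 6F lay below every control, and 1M and 2M lay between control 7F and control 4M. Col1a1 averaged 350136 ± 241775 in Zfp750_KO and 789849 ± 327331 in controls (SD, n = 4 and 3). Its log2 difference was -1.52 ± 1.02 (SE) with the group alone and -1.42 ± 0.82 with the macrophage score, neither past the threshold in limma (adjusted p = 1.00 and 0.443). Col1a2 (chromosome 6) had 305642, 327325, 39650 and 129351 in Zfp750_KO, against 650326, 463668 and 249938 in controls. Col3a1 (chromosome 1) had 384865, 477292, 62589 and 133136 in Zfp750_KO, against 476266, 394433 and 247724 in controls. Per kilobase of transcript Col1a1 was the highest chain in every library except Zfp750_KO 3F, where Col3a1 was higher, at 11249 against 9956 per kilobase.

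Within the fibril, the type I chains kept their proportion in these libraries. Per kilobase, Col1a1 was 1.58, 1.55, 1.34 and 1.70 times Col1a2 in Zfp750_KO, against 1.48, 1.69 and 1.55 times in controls. The log2 ratio differed by -0.03 between the groups (exact permutation p = 0.857; 0.964 after adjustment over the 9 ratios computed). The log2 ratio of Col3a1 to Col1a1 was -0.48, -0.23, 0.08 and -0.87 in Zfp750_KO, against -1.17, -1.14 and -0.80 in controls. It differed by 0.66 on average, but 6F lay below control 7F and the exact permutation p was 0.114 (0.206 adjusted over the 9 ratios). Col1a1 alone made up 29.9%, 30.6%, 26.4% and 41.5% of collagen values in Zfp750_KO, against 45.2%, 45.5% and 40.7% in controls.

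Type V collagen sits inside the type I fibril and limits its width. Col5a1 (chromosome 2) had 56455, 56145, 8272 and 13543 in Zfp750_KO, against 36810, 37141 and 25386 in controls. Col5a2 (chromosome 1) had 35013, 33368, 3880 and 7186 in Zfp750_KO, against 14867, 13718 and 10318 in controls. For both chains 1M and 2M lay above every control and 3F and 6F below every control. Their log2 ratio, Col5a1 over Col5a2, was 0.69, 0.75, 1.09 and 0.91 in Zfp750_KO, against 1.31, 1.44 and 1.30 in controls. Here the groups did not overlap, with a difference of -0.49 and an exact permutation p of 0.0571, the smallest this design can give (0.171 adjusted over the 9 ratios). Col5a3, the remaining type V chain, had 1365 to 5219 in Zfp750_KO and 2676 to 5085 in controls.

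Of the 10 fibrillar chains tested, 2 were called higher with the macrophage score, where 1.23% of all genes were. With the fibroblast score 3 were, against 2.18% of all genes. The called chains are all minor ones, known from cartilage and bone. Col11a1 (chromosome 3, ENSMUSG00000027966), a type XI chain that nucleates cartilage fibrils, had 1092, 1195, 284 and 717 in Zfp750_KO, against 327, 66.95 and 92.2 in controls. Control 4F exceeded 3F, and the other 3 Zfp750_KO libraries exceeded every control. Col11a1 was higher by 2.48 ± 0.28 (SE) with the macrophage score and by 2.69 ± 0.44 with the fibroblast score on the log2 scale (limma, adjusted p = 0.00359 and 0.0189). Its call with the macrophage score held in limma with each of the 7 libraries left out, and that with the fibroblast score was lost in limma without 1M, 2M, control 4M or control 7F, to adjusted p of up to 0.103. Col24a1 (chromosome 3, ENSMUSG00000028197), the type XXIV chain, had 498, 446, 16.9 and 19.3 in Zfp750_KO, against 35.6, 5.25 and 4.50 in controls. Only 1M and 2M stood clearly above the controls: their values were 32.9 and 29.5 times the control mean, those of 3F and 6F 1.12 and 1.28 times. The chain reached 1 per M in 4 of 4 Zfp750_KO libraries and in 1 of 3 controls. It thus passed the filter on low values only with the Zfp750_KO libraries, and its direction is in part set by that filter. Col24a1 was higher by 2.53 ± 0.53 with the macrophage score and by 3.12 ± 0.22 with the fibroblast score (limma, adjusted p = 0.0378 and 0.00110). With the macrophage score that call was lost in limma whenever any library but control 4F was left out, to adjusted p of up to 0.107, and also with the pseudocount 4 times larger (0.0779) or robust moderation (0.0547). The difference was 1.57 without control 4F. Col27a1, another fibrillar chain, had 1378, 1212, 221 and 340 in Zfp750_KO, against 127, 340 and 161 in controls. It was called only with the fibroblast score (1.95 ± 0.42, limma adjusted p = 0.0487) and kept in 2 of 7 fits with a library left out, without control 4F or control 4M; like the other chains called only in that fit it was chosen for naming after its values were seen. Summed cartilage and bone markers, of which Acan, Sox9 and Sp7 are examples, were 72.4 to 203 per M in Zfp750_KO and 50.3 to 166 per M in controls; their part in these results was not tested. Col11a2, the second type XI chain, was low everywhere, at 11.4 to 33.1 in Zfp750_KO and 27.1 to 47.3 in controls.

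Type VI collagen forms beaded microfilaments from the chains Col6a1, Col6a2 and Col6a3, and its other chains can take the place of Col6a3. Col6a3 (chromosome 1) had 116063, 105643, 12730 and 15554 in Zfp750_KO, against 25750, 41409 and 27588 in controls. Col6a1 (chromosome 10) had 56098, 54290, 4947 and 5295 in Zfp750_KO, against 17035, 13682 and 9930 in controls. Col6a2 (chromosome 10) had 61002, 61550, 6254 and 8039 in Zfp750_KO, against 17639, 18827 and 12285 in controls. All 3 chains gave the same picture: 1M and 2M exceeded every control and 3F and 6F lay below every control. For Col6a1 the values were 4.14, 4.01, 0.37 and 0.39 times the control mean. The group means of the proportions of the 3 chains differed little, by -0.04 for log2 Col6a1 over Col6a2 and by 0.01 for log2 Col6a3 over Col6a1 (exact permutation p = 0.800 and 1.00). Single libraries varied more: log2 Col6a3 over Col6a1 was 1.05, 0.96, 1.36 and 1.55 in Zfp750_KO, against 0.60, 1.60 and 1.47 in controls. Without control 4F its difference was -0.30. Col6a1 was called higher only with the fibroblast score, by 0.98 ± 0.21 (limma, adjusted p = 0.0470), and of the 7 fits with a library left out that call was kept only in the 1 without control 4F.

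The alternative type VI chains did not move together. Col6a6 (chromosome 9) had 723, 427, 1025 and 979 in Zfp750_KO, against 1042, 3975 and 2173 in controls. All 4 Zfp750_KO libraries lay below all 3 controls, 3F by a narrow margin. Col6a6 was lower by 1.54 ± 0.25 with the macrophage score, as a log2 difference of -1.54 (limma, adjusted p = 0.0143), and the call was lost without control 4M (limma, adjusted p = 0.0561). With the fibroblast score its difference was -1.66 ± 0.38 (limma, adjusted p = 0.0570). Col6a4 had 92.5, 144, 20.3 and 11.7 in Zfp750_KO, against 15.5, 6.56 and 5.62 in controls, and was called higher only with the fibroblast score (1.93 ± 0.27, limma adjusted p = 0.0109), a call lost without 2M, control 4M or control 7F. It reached 1 per M in 1 of 3 controls, so it passed the filter on low values only with the Zfp750_KO libraries. Col6a5 had 121 to 207 in Zfp750_KO and 19.5 to 157 in controls and was not called.

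Type XII collagen (Col12a1, chromosome 9, ENSMUSG00000032332), a fibril-associated chain of dense and mechanically loaded matrix, had the widest range among the 12 chains with the highest mean, its highest value being 78.4 times its lowest. It had 181307, 109826, 4225 and 3606 in Zfp750_KO, against 3934, 2464 and 2311 in controls. Only 6F fell within the control range, below control 4F. The values were 62.5, 37.8, 1.46 and 1.24 times the control mean, and Col12a1 took 10.1%, 5.97%, 1.89% and 0.613% of collagen values in Zfp750_KO, against 0.166%, 0.129% and 0.219% in controls. Per kilobase it ranked 4 among the 41 chains in 1M and 17 in each control. Relative to the fibroblast score of the same library its log2 level was 4.14, 3.56, 0.67 and 0.43 in Zfp750_KO, against -1.16, -1.27 and -1.21 in controls, so that the groups did not overlap. Its log2 difference was 3.05 ± 1.48 with the group alone, 3.26 ± 0.85 with the macrophage score (limma, adjusted p = 0.0790) and 4.01 ± 0.29 with the fibroblast score (limma, adjusted p = 0.00124). The last call held in limma with each library left out.

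Type XIV collagen (Col14a1, chromosome 15, ENSMUSG00000022371), the other major fibril-associated chain of skin, went the opposite way. It had 3139, 2435, 4569 and 4367 in Zfp750_KO, against 5877, 14560 and 10922 in controls, with no overlap. Col14a1 averaged 3628 ± 1016 in Zfp750_KO and 10453 ± 4360 in controls (SD, n = 4 and 3). Its log2 difference was -1.47 ± 0.37 with the group alone (limma, adjusted p = 0.415). Col14a1 fell by 1.53 ± 0.18 on the log2 scale with the macrophage score and by 1.64 ± 0.26 with the fibroblast score (limma, adjusted p = 0.00410 and 0.0163). The first call held in limma with each library left out, the second in 2 of 7 such fits, those without 1M or control 4F. Col16a1, which joins fibrils and microfibrils, had 442 to 3245 in Zfp750_KO and 1137 to 4202 in controls and was not called. The low chain Col20a1 had 8.32, 27.0, 30.4 and 19.97 in Zfp750_KO, against 31.0, 61.7 and 61.9 in controls, without overlap. Col9a3 had 7.36, 5.03, 5.64 and 9.64 in Zfp750_KO, against 15.8, 14.8 and 25.9 in controls. It reached 1 per M in 0 of 4 Zfp750_KO libraries and in 3 of 3 controls, so it passed the filter on low values only through the controls, and its lack of overlap is in part set by that filter. Neither chain passed limma with any of the 3 models.

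Type VII collagen (Col7a1, chromosome 9, ENSMUSG00000025650) is the sole component of anchoring fibrils, and its loss in humans causes dystrophic epidermolysis bullosa, in which skin blisters beneath the basement membrane. Col7a1 had 14116, 10782, 169 and 543 in Zfp750_KO, against 425, 177 and 87.7 in controls. Libraries 1M and 2M stood far above all others, 6F was above every control, and 3F was within the control range. The values were 61.4, 46.9, 0.74 and 2.36 times the control mean. Col7a1 was higher by 3.53 ± 0.76 with the macrophage score and by 4.31 ± 0.35 with the fibroblast score on the log2 scale (limma, adjusted p = 0.0428 and 0.00138). With the macrophage score the call was lost in limma without 1M, 2M, 6F, control 4M or control 7F, to adjusted p of up to 0.134, and also with a filter of 5 per M (0.0523) or robust moderation (0.144). The difference was 2.13 without control 4F. With the fibroblast score the call held with each library left out.

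The epidermal side of the same junction gave a different picture. Type XVII collagen (Col17a1, chromosome 19) spans the membrane of basal keratinocytes in hemidesmosomes. It had 2575, 1176, 128 and 302 in Zfp750_KO, against 2611, 184 and 281 in controls. The groups overlapped throughout, and Col17a1 was not called (log2 difference 0.39 ± 0.36 with the macrophage score, limma adjusted p = 0.660). Its level followed that of the basal keratin Krt5: the log2 ratio of Col17a1 to Krt5 was -2.24, -2.02, -2.50 and -2.45 in Zfp750_KO, against -2.49, -2.44 and -2.35 in controls (difference 0.12, exact permutation p = 0.514). The log2 ratio of Col7a1 to Krt5 was 0.21, 1.18, -2.10 and -1.61 in Zfp750_KO, against -5.11, -2.49 and -4.03 in controls. These did not overlap, with a difference of 3.30 and an exact permutation p of 0.0571, the smallest possible (0.171 adjusted over the 9 ratios). The keratinocyte score was 10.5 in Zfp750_KO 1M and 10.4 in control 4F, with Col17a1 at 2575 in 1M and 2611 in control 4F. Col7a1 was 14116 in 1M and 425 in control 4F. This sets 1 library beside 1 other, and the part of keratinocyte content in the Col7a1 values was not tested.

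Of the other membrane-spanning chains, Col25a1 was at or below 17.8 except in 1M and 2M. This chain (chromosome 3), known from amyloid plaques in brain and needed for innervation of muscle in mice, had 1386, 601, 7.89 and 8.26 in Zfp750_KO, against 17.8, 2.63 and 0 in controls. It was called higher only with the fibroblast score, by 4.02 ± 0.30 (limma, adjusted p = 0.00138), and passed the filter on low values only through 1M, 2M and control 4F. Without a score its difference was 2.98 ± 1.60 (limma, adjusted p = 0.992), and 3F and 6F lay within the control range. Col23a1 had 2509, 1309, 293 and 341 in Zfp750_KO, against 620, 557 and 438 in controls. Col13a1, a chain of the neuromuscular junction, had 6.76 to 24.95 in Zfp750_KO and 15.8 to 27.0 in controls; neither was called.

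**Figure D3:**
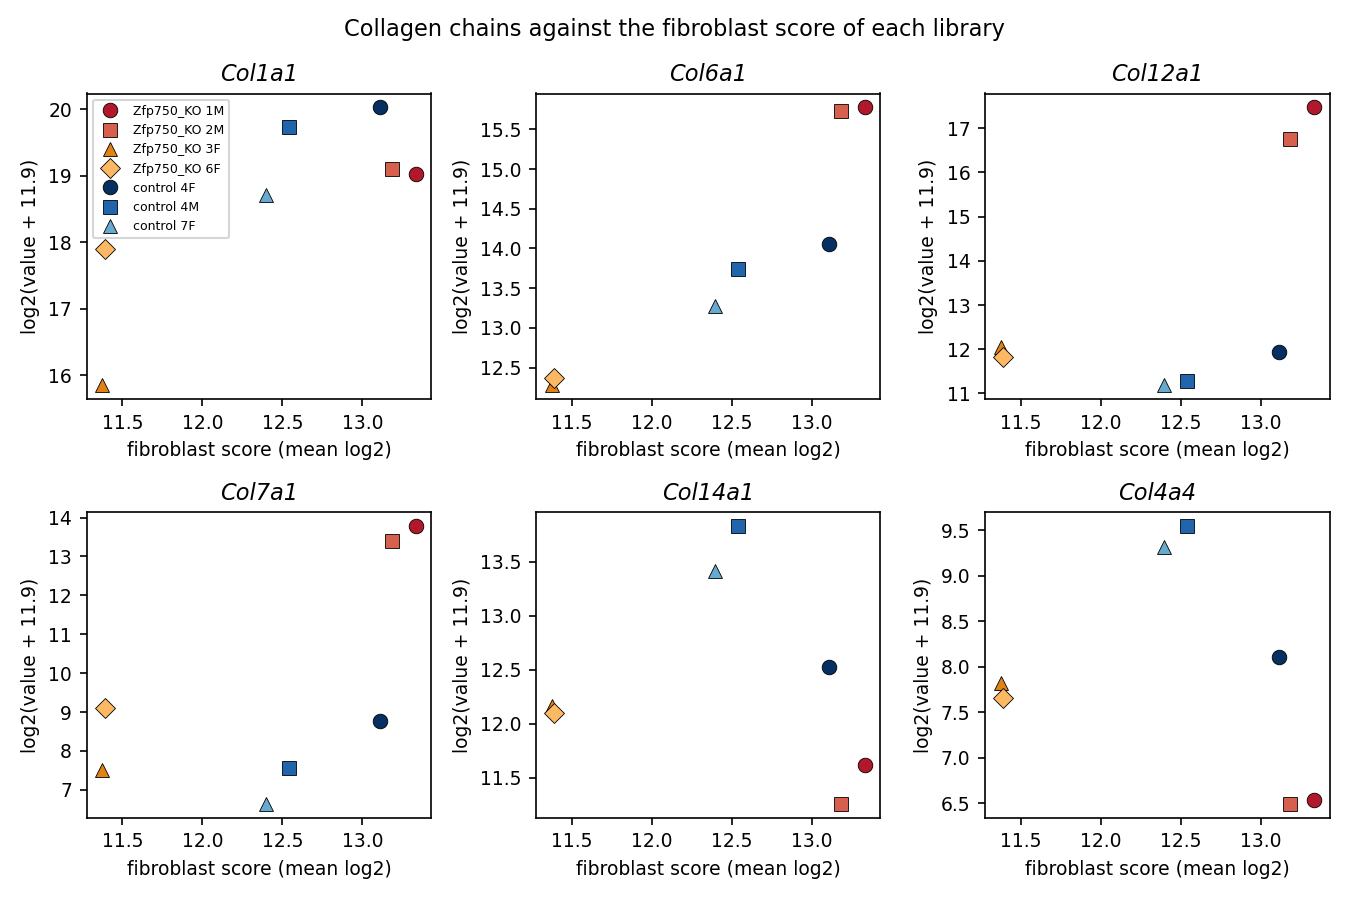
log2(value + 11.9) of 6 chains (y axis) against the fibroblast score, the mean log2 level of 15 non-collagen fibroblast genes (x axis); each point is 1 library, Zfp750_KO in red and orange and control in blue. Zfp750_KO 1M and 2M lie to the right beside control 4F, where Col12a1 and Col7a1 are far above it, Col1a1 is below it, and Col14a1 and Col4a4 are below every control.

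The sequences just before the starts of 4 of the 8 chain genes called higher in the fit with the fibroblast score are shown. All 8 had their highest values in 1M and 2M, so this does not set the 4 apart. The sequences are RefSeq promoter sequences on build GRCm38.p6, 250 bases before each start, all from the plus strand. Capitals mark matches to CCAAT or GGGCGG on either strand. TATAAA and TGANTCA were searched too and not found in these 4, but Col6a1, another of the 8, held TGANTCA.
Col7a1 (chr9:108953336-108953585): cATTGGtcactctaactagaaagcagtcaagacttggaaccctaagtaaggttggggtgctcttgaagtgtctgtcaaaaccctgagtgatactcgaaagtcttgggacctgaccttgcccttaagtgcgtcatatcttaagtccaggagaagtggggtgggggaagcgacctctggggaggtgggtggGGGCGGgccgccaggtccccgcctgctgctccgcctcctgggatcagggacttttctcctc
Col24a1 (chr3:145292222-145292471): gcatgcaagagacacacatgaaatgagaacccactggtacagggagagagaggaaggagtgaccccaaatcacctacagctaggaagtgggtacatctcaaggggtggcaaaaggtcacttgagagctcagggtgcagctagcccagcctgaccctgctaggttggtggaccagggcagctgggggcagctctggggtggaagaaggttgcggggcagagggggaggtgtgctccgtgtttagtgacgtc
Col25a1 (chr3:130180595-130180844): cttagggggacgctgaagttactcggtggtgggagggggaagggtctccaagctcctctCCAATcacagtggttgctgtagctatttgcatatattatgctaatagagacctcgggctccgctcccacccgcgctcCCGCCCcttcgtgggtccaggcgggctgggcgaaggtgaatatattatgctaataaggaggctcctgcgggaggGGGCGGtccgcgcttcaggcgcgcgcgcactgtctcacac
Col11a1 (chr3:114030290-114030539): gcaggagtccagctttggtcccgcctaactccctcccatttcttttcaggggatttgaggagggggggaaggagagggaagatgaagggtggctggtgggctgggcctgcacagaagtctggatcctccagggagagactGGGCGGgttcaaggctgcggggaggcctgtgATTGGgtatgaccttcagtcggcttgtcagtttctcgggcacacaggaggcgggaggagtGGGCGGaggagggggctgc
Col7a1 held CCAAT 249 bases and GGGCGG 61 bases before the start. Col25a1 held CCAAT at 191 bases and GGGCGG at 114 and 40 bases. Col11a1 held CCAAT at 79 bases and GGGCGG at 110 and 19 bases, and Col24a1 held none of the 4 motifs. Of 33 chain genes with a promoter entry, 12 held CCAAT, 20 held GGGCGG, 5 held TATAAA and 1, Col6a1, held TGANTCA. Over all 32851 promoters of this length the shares were 33.8%, 32.7%, 12.4% and 6.75% in the same order. The matches describe the letters of these windows only.

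Type IV collagen is encoded by 6 genes in 3 head-to-head pairs. The Col4a1 and Col4a2 pair encodes the form present in every basement membrane, the Col4a3, Col4a4 and Col4a5 chains form a specialised network best known from kidney, and Col4a5 with Col4a6 serves epithelial and smooth muscle basement membranes. Col4a1 (chromosome 8) had 8971, 7075, 5417 and 6900 in Zfp750_KO, against 9804, 10334 and 8552 in controls, and its groups overlapped only through 1M. Col4a2 (chromosome 8) had 6707, 5725, 3516 and 4872 in Zfp750_KO, against 5668, 6660 and 5059 in controls. Over all 7 libraries the highest Col4a1 value was 1.91 times and the highest Col4a2 value also 1.91 times the lowest, and neither chain was called (log2 differences with the macrophage score -0.43 ± 0.20 and -0.16 ± 0.21, limma adjusted p = 0.304 and 0.777). Per kilobase Col4a1 was 1.30, 1.21, 1.502 and 1.38 times Col4a2 in Zfp750_KO, against 1.69, 1.51 and 1.65 times in controls. The log2 ratios did not overlap and differed by -0.26 (exact permutation p = 0.0571, the smallest possible; 0.171 adjusted over the 9 ratios). The starts of these 2 genes overlap by 22 bases in the GENCODE M21 annotation, on opposite strands, and the strand setting of the counting is not given in the sources used here.

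Of the 6 type IV chains tested, 3 were called lower with the macrophage score, where 2.02% of all genes were. With the fibroblast score 1 was, against 1.36% of all genes. The called chains are all among the 4 minor ones. Col4a4 (chromosome 1, ENSMUSG00000067158) had 81.1, 78.2, 215 and 191 in Zfp750_KO, against 265, 736 and 623 in controls, without overlap. Its log2 difference was -1.86 ± 0.49 with the group alone (limma, adjusted p = 0.444). Col4a4 fell by 1.94 ± 0.16 with the macrophage score and by 2.13 ± 0.26 with the fibroblast score on the log2 scale (limma, adjusted p = 0.00225 and 0.00599), and both calls held in limma with each library left out. Its partner Col4a3 (chromosome 1) had 32.7, 23.4, 111 and 110 in Zfp750_KO, against 49.5, 360 and 280 in controls. Control 4F lay among the Zfp750_KO libraries, yet Col4a3 fell by 1.56 ± 0.21 with the macrophage score (limma, adjusted p = 0.00698), a call lost without control 4M (limma, adjusted p = 0.0561). For both partners the order of the libraries was alike, with 1M and 2M lowest and control 4M highest. The 71 bases between the annotated starts of this pair are shown because both genes are read outward from them. They are written on the minus strand, the strand of Col4a4, on GRCm38.p6, and held none of the 4 motifs.
Col4a4 and Col4a3 (chr1:82586850-82586920): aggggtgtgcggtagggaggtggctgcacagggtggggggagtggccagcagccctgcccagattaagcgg
Col4a5 (chromosome X) had 230, 156, 93.6 and 129 in Zfp750_KO, against 581, 248 and 278 in controls, without overlap. Col4a5 fell by 1.12 ± 0.20 with the macrophage score (limma, adjusted p = 0.0209), and the call was lost in limma without 2M, 3F, control 4M or control 7F, to adjusted p of up to 0.115. Col4a6, its neighbour at 1308 bases, had 11.3 to 111 in Zfp750_KO and 18.4 to 202 in controls and was not called.

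Multiplexins are basement membrane collagens that carry chains of sugar, and the end fragment of type XVIII is endostatin. Col15a1 (chromosome 4), found around muscle, nerve and vessels, had 3638, 4482, 2211 and 3242 in Zfp750_KO, against 12878, 9420 and 5275 in controls, without overlap. Col15a1 fell by 1.34 ± 0.23 with the macrophage score (limma, adjusted p = 0.0166), and the call was lost without 3F or control 4M (limma, adjusted p = 0.0517 and 0.0990). Col18a1 had 508 to 3116 in Zfp750_KO and 1454 to 6497 in controls and was not called. Summed skeletal muscle markers were also lower in knockout cells, at 47.8 to 70.3 per M against 92.8 to 604 per M in controls, with all 10 genes tested and at most 1 of them at 0 in a library. Their part in the lower Col14a1, Col15a1, Col6a6 and minor type IV values was not tested. Summed endothelial markers were 113 to 322 per M in Zfp750_KO and 93.3 to 177 per M in controls.

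The short-chain network collagens, types VIII and X, form hexagonal lattices in vessel walls, eye and growth plate. Col8a2 (chromosome 4) had 782, 836, 265 and 499 in Zfp750_KO, against 501, 244 and 202 in controls. It was higher by 0.94 ± 0.20 with the macrophage score (limma, adjusted p = 0.0413), and the call was lost in limma without 1M, 2M, 6F, control 4M or control 7F, to adjusted p of up to 0.1704. Col8a1 had 222 to 3174 in Zfp750_KO and 772 to 993 in controls, and Col10a1 had 20.3 to 42.0 in Zfp750_KO and 7.74 to 42.0 in controls. Col26a1 and Col28a1, which fit no other class, stayed at or below 52.5 in all libraries. None of these 4 was called.

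**Figure D4:**
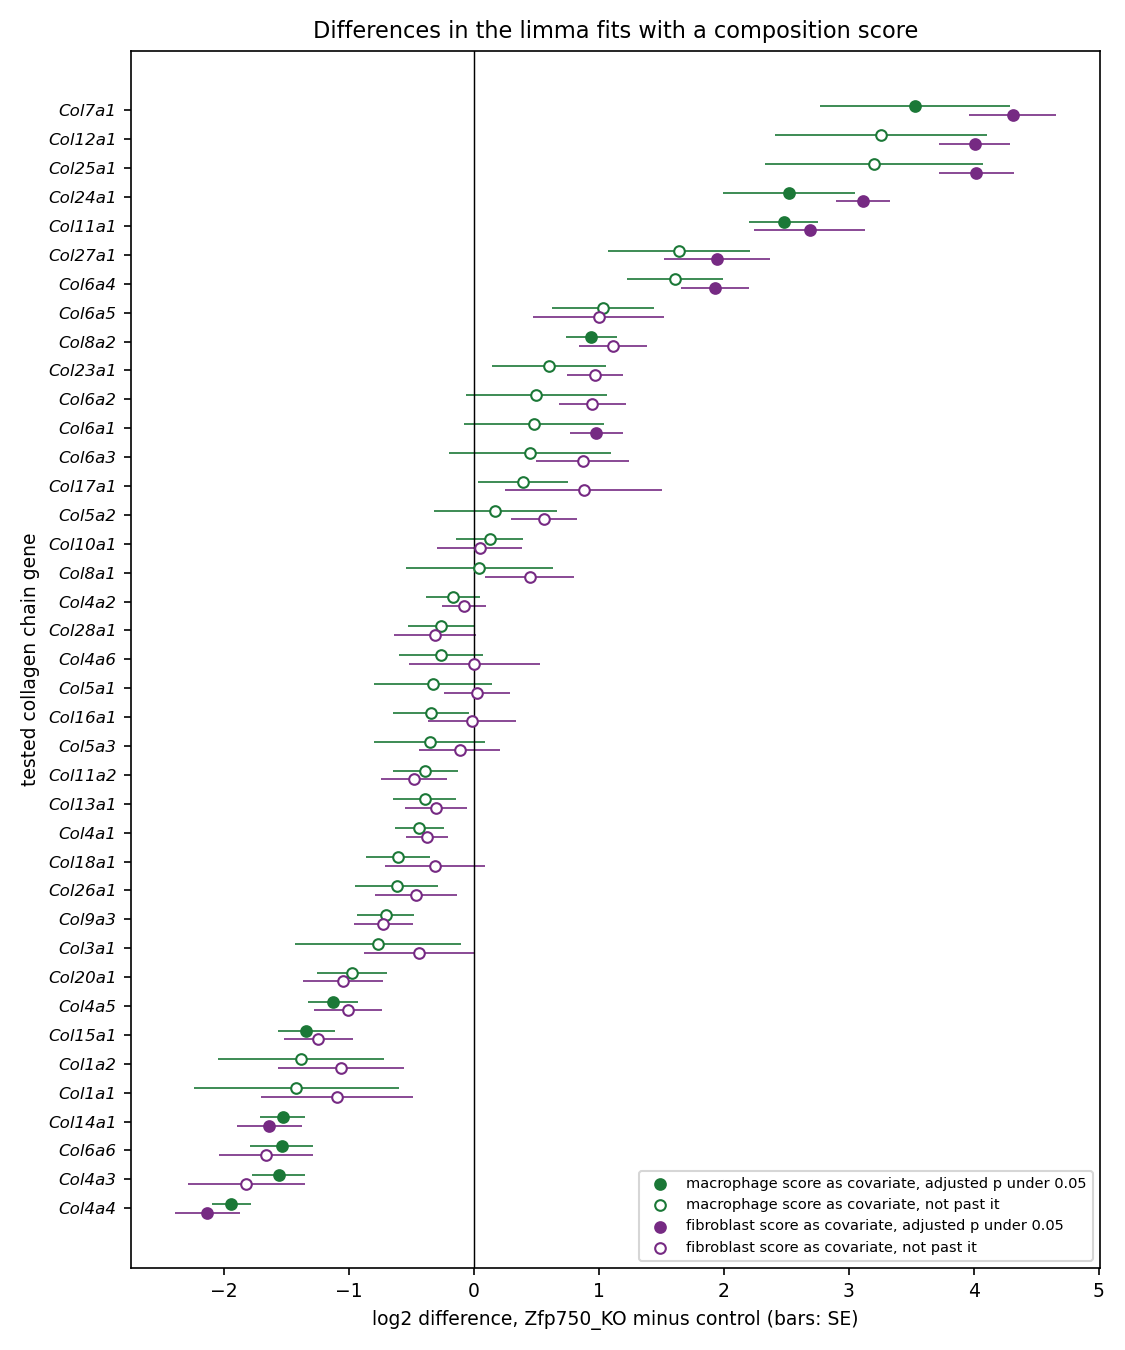
log2 difference, Zfp750_KO minus control (x axis, bars are SE), of the 39 tested chains (y axis) in limma with the macrophage score (green) and with the fibroblast score (purple); filled symbols passed an adjusted p of 0.05. The differences run from 4.31 for Col7a1 to -2.13 for Col4a4, both with the fibroblast score.

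Over all chains, non-overlap of the groups depended on what the values were set against. For the values themselves, 0 of 39 tested chains lay higher in every Zfp750_KO library than in every control, against 3.19% of all genes, and 7 lay lower, against 3.91% of all genes. Those 7 were Col14a1, Col15a1, Col6a6, Col4a4, Col4a5, Col20a1 and Col9a3, the last of which entered the tested set only through the controls, and 6 remain without it. Relative to the fibroblast score of each library, 9 chains lay higher without overlap, against 4.04% of all genes, and 0 lower, against 0.48%. Those 9 were Col12a1, Col7a1, Col11a1, Col24a1, Col27a1, Col25a1, Col23a1, Col6a4 and Col8a2. Of these Col24a1, Col25a1 and Col6a4 reached 1 per M in 1 of 3 controls only. On this scale a value of 0 in 6F, as for Col19a1, stands at -7.81. That is above the highest control of Col25a1 (-8.22) and of Col6a4 (-8.26). For Col25a1 and Col6a4 the pseudocount and the low fibroblast scores of 3F and 6F thus placed both libraries above the controls at any value. Relative to the collagen total of each library, the same 9 and Col6a3, Col6a2 and Col5a2 lay higher, 12 in all against 9.86% of all genes, and Col1a2 lay lower, against 0.0992% of all genes. The mean log2 level of the tested chains minus the fibroblast score was -2.58, -2.61, -2.49 and -2.08 in Zfp750_KO, against -3.10, -2.63 and -2.84 in controls, a difference of 0.42 between means of -2.44 ± 0.24 and -2.86 ± 0.23 (SD, n = 4 and 3). This mean gives low and abundant chains equal weight. The difference between the letters M and F in the genotype effect was tested in limma as an interaction: 0 of 39 chains passed the adjusted threshold, against 0.0165% of all genes. At an unadjusted p under 0.05 there were 20 chains, against 29% of all genes, and the smallest adjusted p of a chain in limma was 0.0848, for Col12a1. Among the controls the letter M is 1 library, 4M, which held both Xist and Ddx3y. Its macrophage score was 10.9, against 7.84 and 7.47 in 1M and 2M. The letter and the cellular makeup therefore cannot be told apart in this interaction, and its counts decide nothing about sex.

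Genes that bind, shape or cut collagen were counted by role. The shares over all genes to read these counts against are 1.23% higher and 2.02% lower with the macrophage score and 2.18% higher and 1.36% lower with the fibroblast score. Of 10 tested collagen receptors, 1 was called higher and 0 lower with the macrophage score. It was Itga1, a subunit of the collagen-binding integrin of fibroblasts and muscle, with 2398, 1680, 1459 and 1242 in Zfp750_KO, against 647, 685 and 764 in controls (1.24 ± 0.21, limma adjusted p = 0.0157). All 4 Zfp750_KO libraries lay above all controls, and the call was lost without control 4M or control 7F. Of 11 tested small leucine-rich proteoglycans, which coat fibrils and set their spacing, 0 were higher and 2 lower: Ogn (osteoglycin) fell by 1.57 ± 0.23 and Ecm2 by 1.48 ± 0.15 (limma, adjusted p = 0.00929 and 0.00359). Ogn had 2256, 1205, 1348 and 1010 in Zfp750_KO, against 5325, 3588 and 3999 in controls, without overlap, and its call was lost without control 4M or control 7F. Ecm2 had 2086, 2567, 540 and 501 in Zfp750_KO, against 8865, 2011 and 2170 in controls. Its groups overlapped, with 1M and 2M near control 4M and 7F and control 4F far above all others, and with the fibroblast score it was not called (-1.15 ± 0.34, limma adjusted p = 0.124).

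Of 26 tested enzymes and chaperones of collagen assembly, 0 were higher and 2 lower with the macrophage score. Both encode enhancers of the proteinase that removes the C-terminal propeptide of procollagen. Pcolce2 had 1279, 928, 493 and 781 in Zfp750_KO, against 4803, 2187 and 2196 in controls, and fell by 1.72 ± 0.19 (limma, adjusted p = 0.00359). Pcolce fell by 1.01 ± 0.21 (limma, adjusted p = 0.0387), with 2432 to 4580 in Zfp750_KO and 4969 to 7794 in controls, and its call was kept in limma only without 1M or control 4F. Of 7 tested collagen-degrading enzymes, 2 were higher and 0 lower, and 1 of the 2, Mmp8, passed the filter on low values only through the Zfp750_KO libraries. The collagenase Mmp13 had 8728, 3510, 177 and 85.4 in Zfp750_KO, against 19.4, 28.9 and 23.6 in controls (4.78 ± 1.06, limma adjusted p = 0.0469). All 4 Zfp750_KO libraries exceeded all controls, and the call was kept in limma only without 6F or control 4F, with a difference of 2.82 without control 4F. It was lost too with the pseudocount 4 times larger, a filter of 5 per M or robust moderation (limma, adjusted p = 0.0656, 0.0564 and 0.155). Mmp8, the collagenase of neutrophils, had 60.3, 46.4, 115 and 52.3 in Zfp750_KO, against 0, 2.63 and 8.998 in controls (2.28 ± 0.28, limma adjusted p = 0.00489). It reached 1 per M in 4 of 4 Zfp750_KO libraries and in 0 of 3 controls, so a tested Mmp8 had to be higher in Zfp750_KO, and its call adds nothing to the count. With the fibroblast score the counts were 2 higher and 0 lower among receptors, 2 and 1 among proteoglycans, 2 and 2 among assembly enzymes and 3 and 0 among degrading enzymes. The proteoglycan genes Dcn and Lum are themselves part of the fibroblast score, so their differences in that fit are in part set by it. The 2 proteoglycans higher in that fit were Aspn (1.76 ± 0.28) and Bgn (1.28 ± 0.20), named after their values were seen (limma, adjusted p = 0.0163 and 0.0146). Both calls were lost without 2M, 3F or control 4M, and that of Bgn also without control 7F.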

How the data were processed

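RNA was measured in 7 libraries, named and grouped by their column names, which match the groups of the labels but no single sample, so genotypes within a group could not be tied to columns. TopHat2 2.1.0 and Partek 9.0.20.0202 are named per the submitters' processing notes; for the genome build, annotation and strand setting, no source used here gives any. The authors deposited normalized counts, a signal rather than raw counts: a whole multiple of the library's step (tolerance 0.02) was found for 77.8% to 79.4% of values up to 200 reads, so whole reads were not recovered and no count test was run. Listed genes had at least 10 reads over the libraries, and column totals were 10.4 to 13.4 M.

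Values were analysed as log2(value + 11.9), 1 per M of the median column total, which understates changes of low genes. The 18141 genes with at least 1 per M in at least 3 libraries were fitted with limma 3.58.1 in R 4.3.3 (trend, Benjamini-Hochberg at 0.05 over all genes): group alone, with the macrophage score, and, as an alternative, with the fibroblast score. Single values used two-sided exact permutation over 35 splits (scipy 1.17.1). The tests of the fibroblast-score fit with a library left out, of the interaction and of non-overlap relative to scores were added after seeing the data. Lengths are of the GENCODE M21 transcript with the longest coding sequence, found for 41 of 41 chains; promoters are RefSeq, found for 33.

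Values are given in every library for the 12 chains with the highest mean, chains called in the first 2 fits, chains with no overlap and a mean of at least 1 per M, and Col4a1, Col4a2, Col7a1 and Col17a1, 24 in all; pathway genes are up to 3 called per list. Outside the 24, values in every library are also given for Col27a1, Col25a1, Col6a4, Col23a1 and Col19a1, which the rule does not name. Of 44 collagen symbols in the class lists, Col9a1, Col9a2 and Col22a1 were not analysed here. The members and all lists were chosen with earlier results of these data known.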

Additional observations from a re-analysis of the deposited data

Results flagged for a closer look

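In 1 of 52 groups of 4 values examined, 1 library lay far from the others: Col19a1, a fibril-associated chain that did not pass the filter on low values, had 2.25 in Zfp750_KO 3F and 0 in 1M, 2M and 6F, so that the gap took up the whole range of the group (gap over range 1). It had 10.1, 2.63 and 4.50 in control 4F, 4M and 7F. The value in 3F corresponds to 2 reads, and chance flags about 1 in 20 such groups.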

How the results depend on the processing

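With the group alone, 0 chains were called in limma under every alternative run except the fibroblast score in place of no covariate, which called 10. With the macrophage score the count of 10 stayed between 8 and 14 under the other pseudocounts, filters, scalings, robust moderation, a term for M or F and the fibroblast score, and ran from 3 (without control 4M) to 14 (without control 4F) with 1 library left out. It was 6 without 2M or control 7F. With the fibroblast score the count of 10 ran from 4 (without 2M) to 19 (without control 4F). The share of all genes called moved too: with the macrophage score it was 3.26% in all 7 libraries, 9.06% when control 4F was left out and 0.742% when control 4M was. With the fibroblast score it was 3.54% in all 7 libraries, 17.7% when control 4F was left out and 0.738% when 2M was. No chain or pathway gene called with a score changed sign in these fits. The 7 pathway genes called with the macrophage score became 12 with the fibroblast score and ran from 3 (without control 4M or 7F) to 23 (without control 4F), as those shares did. The difference in collagen share was -8.22 to -3.47 percentage points with 1 library left out, but +0.973 for the other chains without Col1a1, Col1a2 and Col3a1. Leaving out 1 library gave differences of -0.082 to 0.032 for log2 Col1a1 over Col1a2, -0.13 to 0.073 for Col6a1 over Col6a2 and -0.30 to 0.20 for Col6a3 over Col6a1, so these have no sign. The cause was not tested. No paired analysis was possible because the columns carry no replicate numbers of the labels, and count tests on whole reads were not run. Depth limits the low chains: Col24a1 rested on 46, 4 and 4 reads in control 4F, 4M and 7F, and Col25a1 on 23, 2 and 0, so folds of these chains over single controls are imprecise.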
